A study of Homo sapiens with 18 samples.

Results

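The plasminogen activation genes SERPINB2, PLAUR and PLAU were followed across 18 RNA libraries. They are 3 of the 60658 gene IDs in the deposited table and were found by symbol. SERPINB2 was chosen by its measured rise in FPKM from 1 to 10 ug/ml doxycycline in the clone B11. That rise is therefore a description here, and comparisons that hold B11 libraries at 1 or 10 ug/ml are given for SERPINB2 without a test. PLAUR and PLAU were added by name as its partners.

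Urokinase, the product of PLAU, is a secreted serine protease that cuts plasminogen to plasmin, which degrades fibrin and matrix proteins. Its receptor, encoded by PLAUR, holds urokinase at the cell surface through a lipid anchor and is carried by monocytes. SERPINB2 encodes plasminogen activator inhibitor type 2, a serpin that inhibits urokinase and is largely retained inside monocytes and macrophages. These genes are known targets of RAS, MAPK and AP-1 signalling in various cells.

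The libraries came from THP1, a monocytic acute myeloid leukaemia line labelled as heterozygous for NRAS G12D, and from B11, a THP1 subclone. By the series' own account, B11 carries a lentiviral, doxycycline-inducible NRAS G12V that resists CRISPR, with GFP, plus Cas9, a puromycin resistance gene and paired guide RNAs around the NRAS start codon. Its label reads heterozygous NRAS G12V. The cells it came from had been given doxycycline once, to select those with GFP, before the puromycin selection. Both lines received 0, 1 or 10 ug/ml doxycycline for 5 days, with 3 plates in each of the 6 groups. The untreated B11 plates carry every one of these edits and lack the inducer, and the THP1 plates carry none of them. B11 is 1 clone and each line was divided among its 9 plates, so p-values measure the spread between plates and a difference between the lines cannot be told apart from a difference between clones.

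NRAS, the targeted gene, had 19.8, 22.0 and 21.1 FPKM (fragment counts corrected for transcript length and library size) in untreated B11. It had 24.4, 23.7 and 23.3 FPKM at 1 ug/ml and 28.0, 27.7 and 28.2 at 10 ug/ml. The 3 libraries at the higher dose lay above the untreated ones, by 0.40 on the log2 scale (SE 0.07, limma, adjusted p = 0.000276), and in THP1 the difference was 0.06 (SE 0.07, adjusted p = 0.855). With 1 NRAS value per library, RNA from the transgene and from the edited locus cannot be told apart. All 10 markers of monocytic leukaemia cells averaged at least 1 FPKM in every THP1 group, and 9 or 10 did in each B11 group. CD14 was the marker below that level in B11 at 0 and 10 ug/ml. The summed marker level was 4254 to 5514 FPKM in untreated B11, against 1366 to 1838 in the libraries of the other 5 groups. Of 17 markers of other cell types, 2 to 5 averaged at least 1 FPKM in a group, and 7 to 12 were listed at 0 in all its libraries. PECAM1, which monocytes also express, reached that level in all 6 groups and the fibroblast marker COL1A1 in all but B11 at 10 ug/ml. The epithelial marker KRT8 did so in the THP1 groups and in B11 at 10 ug/ml, and the lymphoid markers CD3D and CD79A in THP1 at 0 and 1 ug/ml. The summed level of all 17 markers of other cell types was 126 to 188 FPKM in THP1 libraries and 326 to 389 in B11 libraries. The part of these marker differences in the results below was not tested. One unnamed ID took 6.51% and 3.76% of the FPKM sum in libraries B and C of the B11 group given 1 ug/ml.

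SERPINB2 lies on chromosome 18 (63871692 to 63903890, plus strand, GRCh38) within a cluster of clade B serpin genes. The start used by RefSeq, at 63887705, lies inside the longer gene annotated by GENCODE. Of the 250 bases before it, the 245 at chr18:63887455-63887699 on the plus strand of GRCh38.p14 (RefSeq) are printed, without the last 5, which are annotated as UTR. They are shown because they hold the letters of an AP-1 motif (TGANTCA), shown in capitals 102 to 96 bases before the RefSeq start.
SERPINB2: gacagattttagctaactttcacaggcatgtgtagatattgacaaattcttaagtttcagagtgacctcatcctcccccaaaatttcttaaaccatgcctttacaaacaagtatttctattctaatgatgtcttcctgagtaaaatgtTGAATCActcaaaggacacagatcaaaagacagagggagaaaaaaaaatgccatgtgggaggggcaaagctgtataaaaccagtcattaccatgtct
The search covered both strands of the 250 bases before each RefSeq start, and 6.57% of 35116 such windows hold a match. The window also holds 1 match, on the other strand, to an ETS motif (AGGAAG), which 28.7% of windows hold. The other motifs searched were CRE (TGACGTCA, 1.65% of windows), NF-kB (54.4%) and SP1 (GGGCGG, 42.6%), and this window holds none of their letters.

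In B11, SERPINB2 was high without doxycycline, low at 1 ug/ml and high again at 10 ug/ml. Its values were 67.9, 62.0 and 83.5 FPKM in the untreated libraries. They were 19.3, 20.7 and 19.7 FPKM at 1 ug/ml. At 10 ug/ml they were 88.6, 87.4 and 90.9 FPKM. No library of one dose overlapped those of another. The share of all genes without such overlap was not computed, here or for the comparisons below. The group means were 71.1 ± 11.1, 19.9 ± 0.734 and 88.9 ± 1.75 FPKM (SD, n = 3), and the highest mean was 4.48 times the lowest. On the scale of log2(FPKM + 1) used for all changes below, the differences were -1.78 (SE 0.09) from 0 to 1 ug/ml, 2.11 (SE 0.09) from 1 to 10 ug/ml and 0.33 (SE 0.09) from 0 to 10 ug/ml. Library C of the untreated group was the highest of its 3. Without it the differences from the untreated cells were -1.66 at the lower and 0.45 at the higher dose.

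In THP1, SERPINB2 stayed within a narrow range. Its values were 43.6, 44.9 and 46.0 FPKM without doxycycline. At the lower dose they were 42.1, 43.4 and 42.6 FPKM, and at the higher dose 50.03, 52.99 and 46.42 FPKM. Each group was separate from the next in order, but the steps were small. Against untreated THP1 the lower dose differed by -0.07 (SE 0.09, limma, adjusted p = 0.984). The higher dose differed by 0.15 (SE 0.09, adjusted p = 0.603), and the step between the doses was 0.22 (SE 0.09, adjusted p = 0.429). With no doxycycline in either line, SERPINB2 was higher in B11 than in THP1 by 0.64 (SE 0.09, limma, adjusted p = 2.23e-05). In that comparison 23.5% of all tested genes were called higher and 47.1% were called in either direction. The clone lay below the parent at 1 ug/ml, by -1.07 (SE 0.09), and above it at 10 ug/ml, by 0.83 (SE 0.09), and these 2 values were not tested. Over the 6 groups the order from high to low was B11 at 10, B11 at 0, THP1 at 10, THP1 at 0, THP1 at 1 and B11 at 1 ug/ml.

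**Figure D1:**
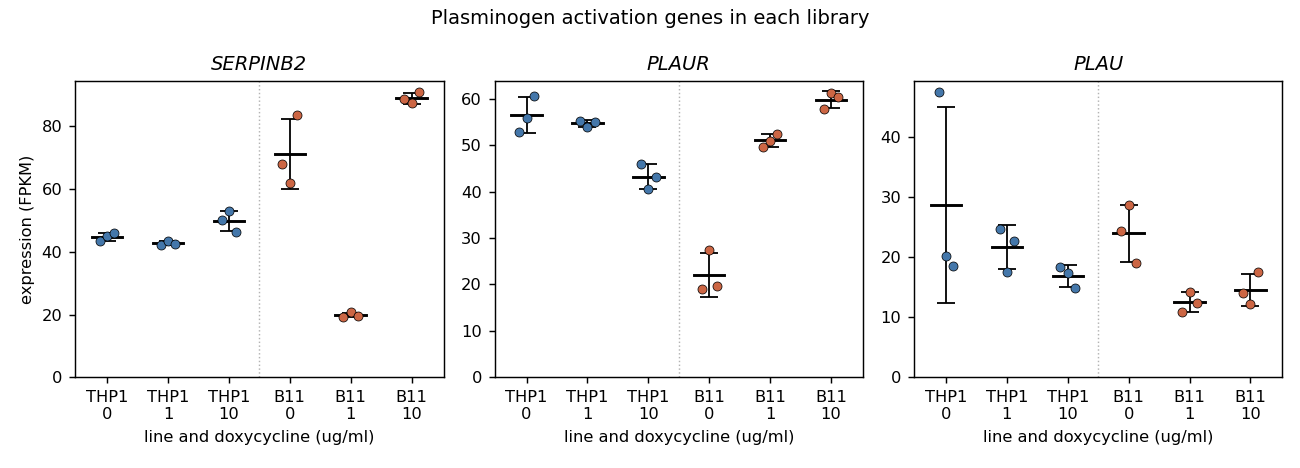
Expression in FPKM (vertical axes, from 0) of SERPINB2, PLAUR and PLAU in each of the 18 libraries, by line and doxycycline dose. Points are libraries, thick lines are means and bars are the SD of 3 libraries. In B11, SERPINB2 falls to 19.9 at 1 ug/ml between 71.1 and 88.9, PLAUR is lowest without doxycycline, and 1 untreated THP1 library stands at 47.5 for PLAU.

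The serpins next to SERPINB2 were compared because SERPINB10 shares exons with it. In GENCODE release 29, 547 exonic bases of SERPINB2, 19.9% of its total, are also annotated to SERPINB10 on the same strand. Reads from these bases could have been given to either gene. SERPINB10 had 88.3, 97.0 and 97.6 FPKM in untreated B11, 35.6, 36.8 and 29.5 at 1 ug/ml and 74.0, 87.5 and 82.3 at 10 ug/ml. It therefore had the same order of a high, a low and a high dose group as SERPINB2, but its untreated libraries were the highest. SERPINB10 fell by 1.45 (SE 0.16, limma, adjusted p = 5e-06) at the lower dose. At the higher dose it differed from untreated cells by -0.21 (SE 0.16, adjusted p = 0.315). Both tests hold libraries by which SERPINB2 was chosen. Through the shared bases they may not be independent of that choice. The same limit holds for SERPINB10 in the counts of clade B serpins in treated B11 below.

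SERPINB8, further along the same strand (63969925 to 64019779), held 86.0 ± 10.5, 71.8 ± 7.02 and 83.1 ± 3.28 FPKM in B11 at 0, 1 and 10 ug/ml. At the lower dose it differed from untreated cells by -0.26 (SE 0.11, limma, adjusted p = 0.0914). SERPINB1, an inhibitor of neutrophil proteases encoded on chromosome 6, was also lowest at the lower dose. It fell by 1.11 (SE 0.13, limma, adjusted p = 8.58e-06) from 198 ± 12.9 FPKM to 91.0 ± 2.30 at 1 ug/ml, and stood at 143 ± 12.5 at 10 ug/ml. SERPINB6, also on chromosome 6, had 42.2 ± 4.63, 48.9 ± 0.716 and 44.5 ± 3.16 FPKM at 0, 1 and 10 ug/ml, with no called change.

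Of 12 other clade B serpins, 4 passed the filter of at least 1 FPKM in at least 3 libraries, and the other 8 were below 1 FPKM in every library. Of these 4, 2 fell and none rose in B11 from 0 to 1 ug/ml (median change -0.68, against -0.01 over all genes tested, of which 17.3% were called lower and 19.8% higher). From 0 to 10 ug/ml 1 fell and none rose (median -0.13, against -0.02, with 21.3% called lower and 21.6% higher). In untreated B11 against untreated THP1, 3 of the 4 were higher and none lower (median 1.34, against 0.02, with 23.5% of all genes called higher and 23.6% lower). Those 3 were SERPINB1 at 2.26 (SE 0.13), SERPINB6 at 1.40 (SE 0.11) and SERPINB10 at 1.29 (SE 0.16). The silent serpins of the chromosome 18 cluster include SERPINB3, SERPINB4, SERPINB7 and SERPINB11, each listed at 0 in all libraries.

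**Figure D2:**
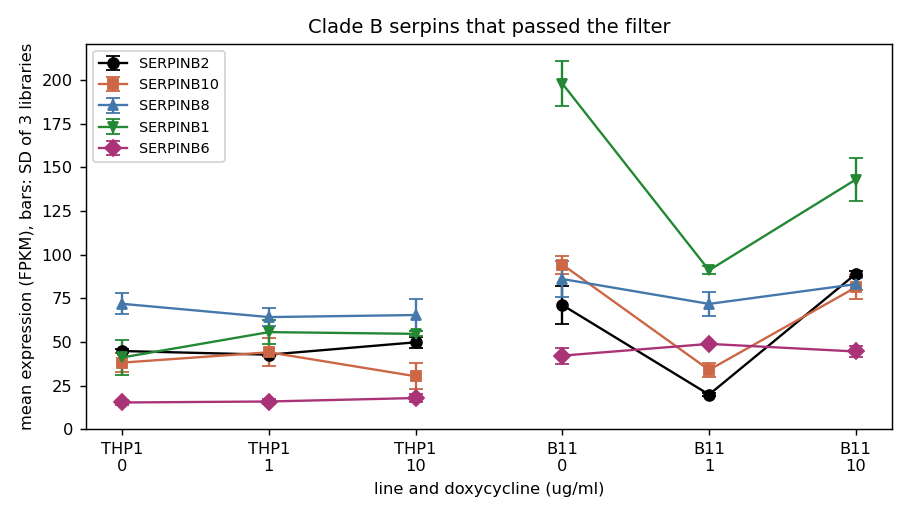
Mean expression in FPKM (vertical axis, from 0) of the 5 clade B serpins that passed the filter, by line and doxycycline dose, with bars of 1 SD over 3 libraries. SERPINB2, SERPINB10 and SERPINB1 are lowest in B11 at 1 ug/ml among the B11 groups, at 19.9, 34.0 and 91.0 FPKM.

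PLAUR lies on chromosome 19 (43646095 to 43670547, minus strand). All 250 bases before its RefSeq start are annotated as UTR. Only 30 bases around an AP-1 match are therefore given (chr19:43670338-43670367, minus strand), with the motif in capitals 186 to 180 bases before the start. The letters of this motif are set beside those of SERPINB2. The window also holds an ETS match, on the other strand, and 4 matches to the NF-kB letters, some of them overlapping.
PLAUR: atcacaactccaTGAGTCAgggccgagcca

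PLAUR, the urokinase receptor, rose in B11 at both doses, and at the higher dose it overlapped untreated THP1. Its values were 19.0, 27.4 and 19.7 FPKM in untreated B11. They were 49.7, 50.9 and 52.5 FPKM at 1 ug/ml and 57.8, 61.3 and 60.3 FPKM at 10 ug/ml. All treated libraries lay above all untreated ones, and the 10 ug/ml libraries lay above the 1 ug/ml libraries. The rise from 22.1 ± 4.68 FPKM was 1.19 (SE 0.11, limma, adjusted p = 4.36e-07) to 51.0 ± 1.41 at 1 ug/ml. It was 1.42 (SE 0.11, limma, adjusted p = 4.86e-08) to 59.8 ± 1.78 at 10 ug/ml, which is 2.71 times the untreated mean. These 2 comparisons share the untreated libraries. Of all genes tested, 37.1% were called at the lower dose, 19.8% as higher, and 42.8% at the higher dose, 21.6% as higher. The further step from 1 to 10 ug/ml was 0.22 (SE 0.11) and was not tested, because the choice of SERPINB2 rests on that contrast.

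In THP1, no PLAUR difference passed. It had 52.8, 55.9 and 60.5 FPKM without doxycycline and 55.23, 53.89 and 55.02 at 1 ug/ml, which overlap. At 10 ug/ml it had 45.9, 40.6 and 43.0 FPKM, below every library of the lower doses. The difference of -0.38 (SE 0.11) at 10 against 0 ug/ml did not pass (limma, adjusted p = 0.135), where 0.923% of all genes were called lower and 1.02% in either direction. Between the doses PLAUR differed by -0.34 (SE 0.11, adjusted p = 0.253). Both passed without library B of untreated B11 (adjusted p = 0.0107 and 0.0309), which enters these differences only through the shared variance.

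The change of PLAUR in B11 minus its change in THP1 was 1.80 (SE 0.15, limma, adjusted p = 3.72e-07) at 10 ug/ml, and at the lower dose 1.23 (SE 0.15, adjusted p = 2.27e-05). Of all genes, 29.8% were called in either direction in this test at the higher dose and 25.9% at the lower. Untreated B11 lay below untreated THP1, with a difference of -1.33 (SE 0.11, limma, adjusted p = 8.27e-08), with 23.6% of all genes called lower. Given 1 ug/ml, the lines differed by -0.10 (SE 0.11, limma, adjusted p = 0.535), with 29.8% of all genes called in either direction. At 10 ug/ml B11 was higher by 0.46 (SE 0.11, limma, adjusted p = 0.00337), with 32.4% of all genes called in either direction. In the order of the 6 groups, B11 at 10, THP1 at 0 and THP1 at 1 ug/ml overlapped with their neighbours at the top. The order went on with B11 at 1, THP1 at 10 and B11 at 0 ug/ml, without overlap.

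PLAU lies on chromosome 10 (73909177 to 73917497, plus strand). Neither of the 2 RefSeq windows before its starts holds an AP-1 match, which concerns only those 250 bases each. The second window holds an ETS match 221 to 216 bases before its start, shown in 30 bases (chr10:73910899-73910928, plus strand) with the motif in capitals. It is shown because the SERPINB2 and PLAUR windows also match this motif, there on the other strand. It also holds 3 SP1 matches and 6 matches to the NF-kB letters, some of them overlapping, and the first window holds 1.
PLAU: caggtgcatgggAGGAAGcacggagaattt
Of PLAU's exonic bases, 916, or 31.1%, overlap the gene C10orf55 on the other strand. No source used here states a strand setting, so reads of these genes may be mixed. C10orf55 averaged 0.250 to 0.670 FPKM in the 6 groups.

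PLAU, the protease, was lower in every treated than in every untreated B11 library, but only the lower dose passed the test. It had 24.3, 28.6 and 19.1 FPKM without doxycycline and 10.9, 14.2 and 12.4 at 1 ug/ml. At the higher dose it had 13.99, 12.23 and 17.50 FPKM. The 2 treated doses overlapped. PLAU fell by 0.88 (SE 0.27, limma, adjusted p = 0.0207) from 0 to 1 ug/ml, where 17.3% of all genes were called lower. The higher dose differed from untreated cells by -0.68 (SE 0.27, limma, adjusted p = 0.0585) and did not pass, where 21.3% of all genes were called lower.

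One library sets the precision of the PLAU tests. In untreated THP1, PLAU had 47.5 FPKM in library A and 20.2 and 18.5 in libraries B and C. THP1 had 24.7, 17.6 and 22.7 FPKM at 1 ug/ml and 18.4, 17.3 and 14.9 at 10 ug/ml, close to libraries B and C. Without that library the SE of the PLAU difference in B11 from 0 to 10 ug/ml was 0.17 and its adjusted p = 0.00515 (limma). The call at 1 ug/ml was lost without library A or B of untreated B11 (adjusted p = 0.0526 and 0.0797) and without library A at 1 ug/ml (adjusted p = 0.0715).

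No PLAU difference passed in THP1. Against untreated THP1 it was -0.28 (SE 0.27, limma, adjusted p = 0.98) for the lower dose and -0.61 (SE 0.27, adjusted p = 0.451) for the higher. Without library A of untreated THP1 these became 0.14, with the direction turned, and -0.19. The response of B11 differed from that of THP1 by -0.60 (SE 0.39, adjusted p = 0.291) for the lower dose, which became -1.02 (adjusted p = 0.00971) without that library. For the higher dose the responses differed by -0.07 (SE 0.39, adjusted p = 0.915), and by -0.49 without that library. B11 minus THP1 was -0.14 (SE 0.27, adjusted p = 0.715) in untreated cells, and 0.28 without that library, so its direction turned. It was -0.74 (SE 0.27, adjusted p = 0.0558) at the lower dose and -0.21 (SE 0.27, adjusted p = 0.611) at the higher, and the first of these passed without that library (adjusted p = 0.00483). All neighbours in the order of the 6 PLAU means overlapped.

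The ratios of receptor to protease in treated and untreated B11 libraries did not overlap. The share of all gene pairs without such overlap was not computed. Of single genes tested, 37.1% were called in B11 at 1 against 0 ug/ml and 42.8% at 10 against 0 ug/ml. FPKM is per length, so the levels of the genes can be set side by side within a library. The ratio of PLAUR to PLAU was 0.781, 0.959 and 1.03 in untreated B11. It was 4.55, 3.57 and 4.21 at 1 ug/ml and 4.13, 5.01 and 3.45 at 10 ug/ml. In the THP1 libraries it lay between 1.11 and 3.28. Untreated B11 had the lowest ratios of all libraries and treated B11 the highest. Each of these B11 group differences, and each difference from THP1 at the same dose, had no overlap and an exact two-sided permutation p = 0.1, the smallest that 3 against 3 libraries allow (adjusted p = 0.16 over 8 comparisons). The ratio of SERPINB2 to PLAU was 1.598 ± 0.157 in B11 at the lower dose and 6.22 ± 0.984 at the higher (SD, n = 3), against 3.11 ± 1.14 untreated, and is given as a description.

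**Figure D3:**
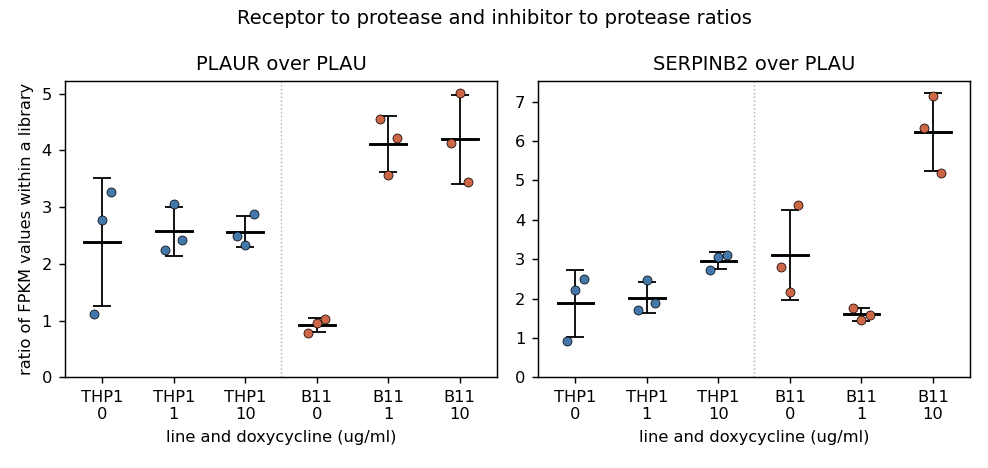
Ratio of PLAUR to PLAU and of SERPINB2 to PLAU (vertical axes, FPKM values divided within a library) by line and doxycycline dose. Points are libraries, thick lines are means and bars are the SD of 3 libraries. The PLAUR to PLAU ratio is 0.924 on average in untreated B11 and 4.11 and 4.20 in treated B11.

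The other genes of the plasminogen system were sparse in these cells. Of 13 listed, 6 passed the filter. Plasminogen itself (PLG) was listed at 0 in all libraries. PLAT, the tissue-type activator, averaged at most 0.362 FPKM in a group. Comparing 10 with 0 ug/ml in B11, 4 of the 6 rose and 1 fell (median 0.61, against -0.02 over all genes tested, of which 21.6% were called higher and 21.3% lower). At 1 against 0 ug/ml, 3 rose and 1 fell (median 0.55, against -0.01, with 19.8% called higher and 17.3% lower). In THP1 at 10 against 0 ug/ml, none rose and 1 fell (median -0.01, against 0.00, with 0.0968% called higher and 0.923% lower). In untreated B11 against untreated THP1, 1 was higher and 3 were lower (median -0.79, against 0.02, with 23.5% called higher and 23.6% lower).

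SERPINE2, a cell-bound inhibitor of thrombin and urokinase, had the largest change of these 6. It rose from 1.12 ± 0.555 FPKM in untreated B11 to 8.75 ± 0.418 at 1 ug/ml and 15.5 ± 3.08 at 10 ug/ml, by 2.98 (SE 0.21, limma, adjusted p = 2.63e-08) at the higher dose. Unlike SERPINB2 it had no dip at 1 ug/ml. In THP1 it stood at 7.16 ± 1.19 FPKM untreated and 6.92 ± 1.83 at 10 ug/ml. SERPINI1, an inhibitor of tissue-type activator, rose by 0.80 (SE 0.23, adjusted p = 0.0114) in B11 at 10 ug/ml. SERPINF2, the main inhibitor of plasmin, fell by 0.94 (SE 0.17, limma, adjusted p = 0.000419) from 2.31 ± 0.524 FPKM. It passed the filter only with the untreated B11 libraries, the group where it was highest. This test, and the place of SERPINF2 in the counts above, are therefore not independent of the filter. F12, a plasma contact factor, rose by 1.34 (SE 0.27, adjusted p = 0.000919) at levels of at most 1.67 FPKM. THBD, which encodes thrombomodulin, rose by 0.43 (SE 0.10, limma, adjusted p = 0.0031) in B11 and fell by 0.45 (SE 0.10, adjusted p = 0.0497) in THP1. Its mean went from 5.3 to 7.4 FPKM in B11 and from 22.9 to 16.5 FPKM in THP1, so B11 stayed below THP1. A2M, a broad protease inhibitor, differed by 0.01 (SE 0.29) in B11.

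Surface proteins that bind plasminogen were abundant, and 2 of the 4 listed rose in B11 at each dose while none fell (median 0.41 at 1 ug/ml, against -0.01 over all genes, and 0.55 at 10 ug/ml, against -0.02). Of all genes, 19.8% were called higher at the lower dose and 21.6% at the higher. S100A10, which binds plasminogen as a partner of annexin A2, rose from 56.0 ± 5.07 to 118 ± 1.36 FPKM with the lower dose and 106 ± 19.1 with the higher. In THP1 it fell from 85.9 ± 9.78 to 29.9 ± 1.45 FPKM at 10 ug/ml, by 1.49 (SE 0.12, limma, adjusted p = 4.57e-05). The change in B11, 0.89 (SE 0.12), had the opposite sign, and B11 minus THP1 was 2.38 (SE 0.16, limma, adjusted p = 5.7e-08). ENO1, a glycolytic enzyme also found at the surface, rose from 609 ± 46.1 to 1258 ± 58.9 FPKM in B11 at 10 ug/ml. In THP1 it stood at 1306 ± 81.1 FPKM untreated and 1153 ± 113 at 10 ug/ml. Between the untreated lines, 2 of the 4 receptors were lower in B11 and none higher (median -0.29, against 0.02 over all genes). Of all genes, 23.6% were called lower in that comparison and 23.5% higher. ANXA2 and PLGRKT, a transmembrane plasminogen receptor, differed in B11 by -0.03 (SE 0.14) and 0.21 (SE 0.16) at 10 ug/ml, with adjusted p = 0.911 and 0.312.

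**Figure D4:**
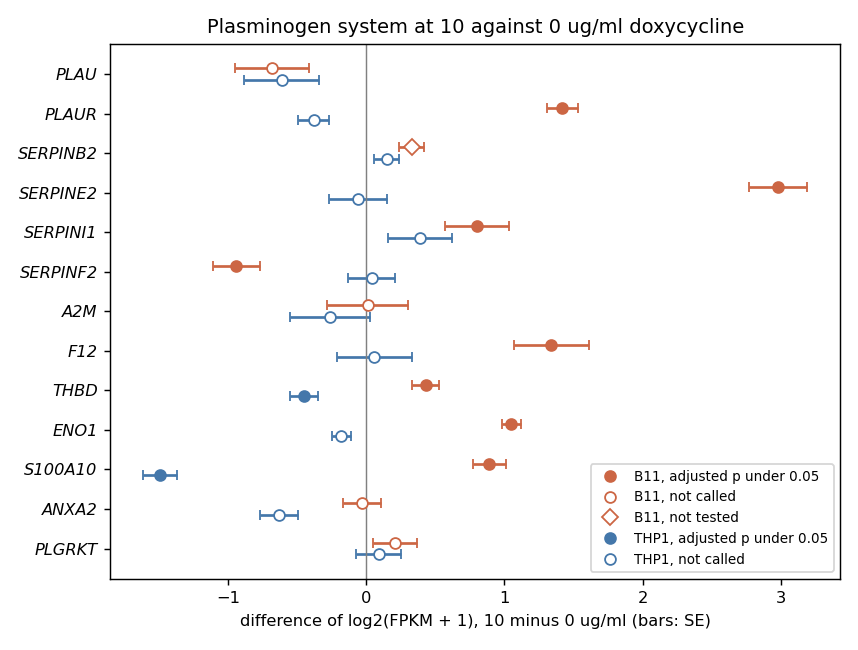
Difference of log2(FPKM + 1) at 10 minus 0 ug/ml doxycycline (horizontal axis) in B11 and THP1 for the 3 genes and the other genes of plasminogen activation that passed the filter, with bars of 1 SE. Filled circles passed at an adjusted p under 0.05, open circles did not, and the open diamond was not tested. PLAUR lies at 1.42 in B11 and -0.38 in THP1, and SERPINE2 at 2.98 and -0.06.

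Of 17 listed partners of the urokinase receptor, 14 passed the filter, and 4 rose and 3 fell in B11 between 0 and 10 ug/ml (median -0.04, against -0.02 over all genes). With 21.6% of all genes called higher and 21.3% lower, these counts are near the general share. MRC2, a collagen receptor that associates with the urokinase receptor, rose from 131 ± 13.2 to 365 ± 16.3 FPKM. ITGAM, the alpha chain of the integrin Mac-1, rose from 3.37 ± 1.26 to 27.9 ± 3.16 FPKM at 1 ug/ml and was at 11.3 ± 2.64 at 10 ug/ml. SORL1, a sorting receptor that binds urokinase complexes, fell by 1.59 (SE 0.25, limma, adjusted p = 9.09e-05). LRPAP1, the chaperone of LDL receptor family proteins, rose by 0.26 (SE 0.05, adjusted p = 0.00115). Of 8 LY6 and uPAR domain genes, 3 passed the filter. PINLYP rose by 1.35 (SE 0.18, limma, adjusted p = 2.02e-05) and CD59, which blocks complement lysis, fell by 0.52 (SE 0.20, adjusted p = 0.0453).

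Of 24 listed proteases and inhibitors linked to the plasmin cascade, 15 passed the filter, and 3 rose and 6 fell in B11 between 0 and 10 ug/ml (median 0.03, against -0.02). The shares over all genes were 21.6% higher and 21.3% lower. TIMP3, a matrix-bound inhibitor of metalloproteinases, rose from 1.28 ± 0.559 to 28.5 ± 5.40 FPKM. TIMP1 fell from 1112 ± 28.7 to 601 ± 35.0 FPKM and TIMP2 from 79.4 ± 5.46 to 41.7 ± 1.99. MST1, a growth factor homologue of plasminogen, fell by 1.17 (SE 0.16, limma, adjusted p = 3.2e-05).

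Genes of AP-1, ETS and EGR factors, and readouts of ERK, were set beside these genes as measured levels. AP-1 and ETS motifs were searched above and an EGR motif was not. Of 12 tested AP-1, ETS and EGR genes, 8 rose and 4 fell in B11 at the higher dose (median 0.93, against -0.02 over all genes), and 8 rose and 1 fell at the lower (median 0.87, against -0.01). The shares of all genes were 21.6% higher and 21.3% lower at the higher dose, and 19.8% and 17.3% at the lower. In THP1 given the higher dose none of the 12 rose and 4 fell (median -0.31, against 0.00), where 0.923% of all genes were called lower. FOSL1, an AP-1 subunit, was at 1.36 ± 0.459, 6.13 ± 1.05 and 10.4 ± 0.157 FPKM at 0, 1 and 10 ug/ml, and EGR1 at 1.34 ± 0.0544, 20.8 ± 0.677 and 49.0 ± 3.37. FOS rose by 2.07 (SE 0.16) and ETV4, an ETS factor, by 3.19 (SE 0.20) at 10 ug/ml. All 7 tested genes of ERK output rose at both doses (medians 1.42 and 1.38), against the same shares and medians of all genes in B11, among them DUSP6 from 1.67 ± 0.292 to 21.9 ± 0.461 and 21.0 ± 3.19 FPKM. In untreated B11 against untreated THP1, all 7 ERK output genes were lower (median -1.29, against 0.02 over all genes). Of the 12 AP-1, ETS and EGR genes, 7 were lower there and none higher (median -0.91). The shares of all genes in that comparison were 23.5% higher and 23.6% lower. Like PLAUR, and unlike SERPINB2, the means of FOSL1, EGR1 and DUSP6 at 1 ug/ml lay above those of untreated B11. Whether any of these factors acts on the 3 genes was not tested.

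Genes with the most similar pattern were sought among 4911 protein-coding genes whose 6 group means spanned at least 1 on the log2 scale, by Pearson's r with each gene over those 6 means. The means share libraries and line, and r is given as a description. For SERPINB2 the closest were SLC6A6 (r = 0.972), ANXA2R (r = 0.971), RASA4B (r = 0.926), ZNF585A (r = 0.912) and ADSSL1 (r = 0.890). ANXA2R, a receptor for annexin A2, averaged 21.8, 11.7 and 25.3 FPKM in B11 at 0, 1 and 10 ug/ml. For PLAUR the closest were TMEM237 (r = 0.998), the fatty acid synthase FASN (r = 0.995), MZT2A (r = 0.993), SDF2L1 (r = 0.989) and MTBP (r = 0.988). For PLAU they included ACAP1 (r = 0.967), the TNF receptor TNFRSF1B (r = 0.958), LGALS2 (r = 0.945) and SNX20 (r = 0.943). No gene named here appeared in more than 1 of the 3 sets.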

How the data were processed

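RNA was measured in 18 libraries. The authors' deposited table holds 1 FPKM value per gene ID and library. HISAT2, Cuffnorm and GRCh38 are named in the submitters' processing notes. No source used here gives versions, annotation, strand or scaling option. The header names no unit, and FPKM was inferred from Cuffnorm and the values. Read counts were not used here, so counting error is unknown. Relative depth was estimated from the most common ratio between libraries over genes below 1 FPKM in all of them, and ranged from 0.842 to 1.22 times the mean.

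Symbols came from GENCODE release 29, which named 57047 of 60658 IDs, and 17555 genes reached 1 FPKM in 3 or more libraries and were tested. All 6 groups entered a single limma model (limma 3.58.1, R 4.3.3) of log2(FPKM + 1) with an intensity trend, 12 residual degrees of freedom and 12 contrasts. P-values were adjusted by Benjamini-Hochberg over all genes within a contrast and called under 0.05. Changes of low genes are understated on this scale. The fit was run on simulated data with independent normal noise and changes in a small share of genes. That setting differs from these data, so it does not give the error rate here. Replicate libraries correlated at r of 0.938 to 0.958 across genes.

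The members, gene lists and tests were chosen with earlier results of these data known. By rule the text names the 3 genes, genes that overlap their exons, NRAS, the tested genes of the plasminogen system and receptors, up to 4 called genes of each other list with the smallest p, and 5 genes by likeness to each member. SERPINB8, PLG, PLAT and the serpins at 0 fall outside it and were named after their values were seen. Some genes that the rule or lists cover are not reported here. Alternatives covered the pseudocount, filter, scaling, moderation, groups fitted, a replicate block, gene class and libraries left out.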

Additional observations from a re-analysis of the deposited data

Results flagged for a closer look

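Changes that differed between B11 and THP1 by the test of the difference itself were singled out among the 3 genes and the other plasminogen genes. Of all genes tested, 25.9% were called in this test at 1 ug/ml and 29.8% at 10 ug/ml. PLAU, SERPINI1, A2M and PLGRKT passed at neither dose, and SERPINB2 was not tested. Each value is the signed change of log2(FPKM + 1) in B11 minus that in THP1, from limma, and does not say in which line the change was larger. For PLAUR it was 1.23 at 1 ug/ml and 1.80 at 10 ug/ml. For SERPINE2 it was 2.49 and 3.04, for F12 1.17 and 1.28, and for ENO1 0.94 and 1.23. For S100A10 it was 1.29 and 2.38, the latter from changes of 0.89 in B11 and -1.49 in THP1. For SERPINF2 it was -0.92 and -0.98, from falls in B11 and changes of 0.19 and 0.04 in THP1. SERPINF2 passed the filter only with the untreated B11 libraries, so its tests are not independent of the filter. For THBD and ANXA2 it was 0.88 and 0.60 at 10 ug/ml. For ANXA2 the difference in B11 was -0.03 and in THP1 -0.63, which did not pass there (adjusted p = 0.0502). F12 averaged 0.0496 FPKM in untreated B11 and 1.67 FPKM at 10 ug/ml, so its change rests on low values.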

How the results depend on the processing

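PLAUR kept its direction and its call in B11 at 1 and 10 against 0 ug/ml, in both differences of responses and in untreated B11 against THP1 under all 30 alternatives, as did SERPINB2 in untreated B11 against THP1. PLAU in B11 at 10 against 0 ug/ml stayed at -0.68 and passed with a mean of at least 5 FPKM (adjusted p = 0.0488), with only the groups compared (0.042) and with named protein-coding genes only (0.0441). It ranged from -0.83 to -0.55 with a library left out. PLAU at 1 against 0 ug/ml was -1.05 (adjusted p = 0.0853) with library A alone at that dose and ranged from -1.02 to -0.74 with a library left out. PLAUR in THP1 at 10 against 0 ug/ml ranged from -0.42 to -0.33. Of 1080 values of the 3 genes, 1057 kept their side of the threshold or stayed within the spread. This count includes untested differences that an alternative could not change, such as one that altered only the moderation or left out a library of another group. The count of genes called in THP1 at 10 against 0 ug/ml was 179, against 46 with only the groups compared, 99 with library A alone in B11 at 1 ug/ml and 69 (without library B or C of untreated THP1) to 217 with a library left out. With library A alone the counts were 4071 against 6516 in B11 at 1 against 0 ug/ml and 2704 against 5231 for the lines at 1 ug/ml. The letters A to C pair nothing in the labels, and same-letter deviations correlated at -0.07 to 0.09 in 45 pairs. With the letter as a replicate block PLAUR in B11 at 10 against 0 ug/ml was 1.42 and no call of the 3 genes changed. PLAU in B11 against THP1 at 1 ug/ml also passed under 4 processing alternatives, among them scaling to TPM (-0.78, adjusted p = 0.047). Of 2400 list values, 101 moved. No scaling moved the median of all genes by over 0.1. Depth limits low genes most, and counting error could not be separated from FPKM.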

Other observations

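HMSD, which lies between SERPINB10 and SERPINB8 on chromosome 18 and overlaps SERPINB8, averaged 5.98, 22.0 and 1.51 FPKM in THP1 at 0, 1 and 10 ug/ml and 0.114, 2.56 and 0.519 in B11. VPS4B, at the other end of the serpin cluster, averaged 51.8 to 68.3 FPKM over the 6 groups. Both were chosen after their values were seen, and their differences were not tested here.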
